A study of Rattus norvegicus with 18 samples.

Results

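Follicles of untreated Crl:CD(SD) rats, an outbred laboratory stock, were compared on either side of ovulation on 6 of the series' 18 arrays, chosen by their labels alone. The 3 control PeF arrays hold peri-ovulatory follicles taken at 22:00 of proestrus. The 3 control PoF arrays hold ruptured, post-ovulatory follicles taken at 10:00 of estrus, 12 hours later. No drug was given to either group, and the labels describe 3 animals per group and time. In each phase 15 follicles were cut by laser microdissection from stained frozen sections 8 micrometres thick, and their total RNA was hybridized to arrays of 31099 probe sets. The labels do not tie an array to an animal, so p-values reflect only how far these samples spread, which may be technical, and the sources used here give no age of the rats. The titles call the earlier follicles peri-ovulatory, while the study's design text calls them pre-ovulatory. The other 12 arrays hold follicles of rats given indomethacin or RU486, which serve here only for the comparison at the end.

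Ovulation starts with the surge of luteinizing hormone from the pituitary, which acts on receptors of the theca and of the outer granulosa cells. Through cyclic AMP these cells make ligands of the epidermal growth factor (EGF) receptor, prostaglandins and the progesterone receptor, while the cumulus around the oocyte spreads in a matrix of hyaluronan. Proteolysis and contraction then open the follicle wall. The granulosa and theca cells that stay behind luteinize: they give up estrogen synthesis for progesterone synthesis, and vessels grow into the former follicle.

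The arrays of the groups differed in more than gene content. The median deposited signal was 16.2, 22.3 and 4.40 on control PeF 1, 2 and 3 and between 24.2 and 27.4 on the control PoF arrays, while the spiked hybridization controls, which do not depend on the follicle RNA, had medians from 1676 to 2444. Gapdh has probe sets near each end of its transcript, and their log2 difference, 3' minus 5', is larger in degraded RNA. It ran from 2.96 to 4.11 in control PeF and from 2.07 to 2.31 in control PoF. That of Actb overlapped between the groups. Control PeF 3, the dimmest array, correlated with the other control PeF arrays at 0.869 and 0.890, against at least 0.963 for every other pair within a group. Brightness and Gapdh thus moved with the time of collection, and their part in the results was not tested apart from the alternatives below. In RNA of whole follicles, fewer cells of a type and less RNA per cell cannot be told apart.

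What the comparison of these 6 arrays asks is what an untreated follicle gains and loses as it ovulates. Ptgs2 and Adcyap1, which make prostaglandin and the neuropeptide PACAP, fell the furthest among the genes named by rule, followed by Gclm, Cftr, Sult1e1 and Scg2. Cemip, Scx, Fmo1, Apln, Slc16a3 and Adm were among the genes that rose furthest. Signals are given below as quantile-normalized array signals, and differences as log2(signal + 2.79), control PoF minus control PeF, ± the standard error of limma's fit over all 18 arrays (n = 3 per group), with Benjamini-Hochberg adjusted p. A gene is called where that p is under 0.05. Of 18155 probe sets tested, 7190 (39.6%) were called, 3835 higher (21.1%) and 3355 lower (18.5%), and 4036 of them changed at least 2-fold. Over 10381 genes with 1 probe set each, 4586 were called (44.2%), 2548 of them higher (24.5%) and 2038 lower (19.6%), which is the background for every count of genes below. The values of the groups did not overlap in 2948 genes with control PoF above (28.4%) and in 2539 with control PoF below (24.5%). The median difference of those genes was 0.08. With each array scaled to its median alone the calls split into 4355 higher and 1483 lower, and into 5454 and 141 with signals as deposited, since these scalings moved the median probe set by 0.29 and 1.33 upwards. Of the 3355 lower calls, 1463 were also called lower after median scaling and 139 with signals as deposited, where 2362 changed sign. Falls named below are given as falls relative to the other genes of the same arrays.

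**Figure D1:**
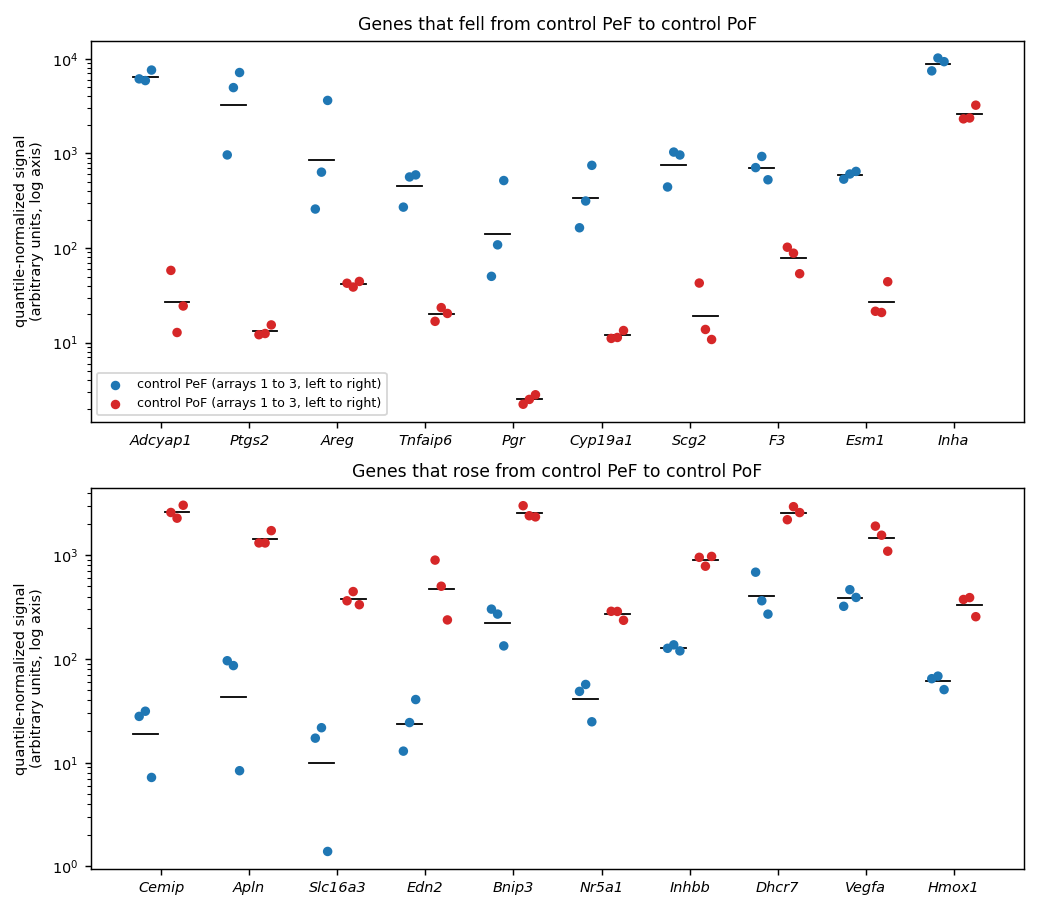
Quantile-normalized signal (log axis) of 10 genes that fell and 10 that rose, each point being 1 array: control PeF 1 to 3 (22:00 of proestrus) and control PoF 1 to 3 (10:00 of estrus), with bars at the group means of log2(signal + 2.79). The 3 values of one group lie beyond the 3 of the other in all 20 genes, and control PeF 3 is the highest control PeF array in 7 of the 10 that fell.

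Cyclooxygenase 2 (Ptgs2), the inducible enzyme of prostaglandin synthesis, had signals of 964, 4962 and 7162 on control PeF 1, 2 and 3 and of 12.1, 12.5 and 15.4 on control PoF. The groups were far apart, with the control PeF arrays differing among themselves by more than the control PoF arrays did, and the difference was -7.66 ± 0.83 (adjusted p = 1.8e-06, limma). Adcyap1, which encodes the neuropeptide PACAP, went from 6136, 5888 and 7605 to 58.0, 12.8 and 24.4 (-7.78 ± 0.46, adjusted p = 3.3e-09, limma). All control PeF arrays were alike for this gene. Gclm, the regulatory subunit of the enzyme that starts glutathione synthesis, went from 2082, 5357 and 6711 to 64.4, 47.2 and 57.2 (-6.17 ± 0.39). The chloride channel gene Cftr went from 199.5, 430 and 824 to 11.2, 6.15 and 1.59 (-5.67 ± 0.55). Estrogen sulfotransferase (Sult1e1), which inactivates estrogen, went from 1710, 2716 and 4126 to 109, 55.5 and 22.1 (-5.62 ± 0.49). Secretogranin 2 (Scg2), a cargo protein of secretory granules, went from 442, 1033 and 962 to 42.7, 13.8 and 10.8 (-5.14 ± 0.45). Other genes among the 20 largest falls were Tfpi2, Lratd1, Tchh, Sfmbt2, Trim36, Sult1b1, Hsf2bp and Adgrv1, with differences between -5.06 and -4.43.

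The hyaluronidase-like gene Cemip, needed to break down long hyaluronan, had 28, 31.4 and 7.21 in control PeF and 2585, 2278 and 3036 in control PoF (6.90 ± 0.32, adjusted p = 3.5e-10, limma). Scleraxis (Scx), a transcription factor of tendon and other dense connective tissue, stood at background on all control PeF arrays and at 117, 235 and 302 on control PoF, at least 13.8-fold higher (adjusted p = 3.1e-08, limma). Here a gene is at background in a group when no array shows it above the brightest control probe set without a target, and the bound is taken against that level. The flavin monooxygenase Fmo1 was likewise at background in control PeF and at 111, 164 and 210.4 in control PoF, at least 10.7-fold higher. The lactate exporter Slc16a3 had 17.2, 21.7 and 1.39 and then 364, 447 and 334 (4.91 ± 0.53). Among the other large rises were Gamt, which makes creatine (4.85 ± 0.47), Sh3tc2 (4.72 ± 0.36), Klhdc8a (4.67 ± 0.28), the mitochondrial sulfur transferase Tst (4.61 ± 0.45), Hao2 (4.52 ± 0.50) and pyruvate carboxylase, Pc (4.51 ± 0.74). Aifm2, Sbk1, Cmbl, Proser2, Ndrg2 and Bphl followed, with differences between 4.14 and 4.48. In 66 genes the signal was at background on all control PeF arrays and above it on all control PoF arrays, and 17 genes showed the reverse, among them the hedgehog-binding protein gene Hhip (at least 5.66-fold lower). The background level was 8.60, 8.12 and 23.6 on control PeF 1 to 3 and 6.91, 5.32 and 6.63 on control PoF 1 to 3. A gene thus counts as at background more easily in control PeF, so the 2 counts cannot be set against each other. The creatine transporter Slc16a12 (at least 4.38-fold) and the nicotinamide riboside kinase Nmrk1 (at least 5.08-fold) were among the 66, and Hhip and these examples were chosen after their values were seen.

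The EGF-family ligands Areg and Nrg1 and the receptor Egfr fell, while other genes of the same list rose. Of 17 genes tested in the list of ovulatory ligands and receptors, 7 were called lower and 4 higher, with a median of -0.52, and of its 5 EGF-family ligands 3 lower and 1 higher. Amphiregulin (Areg), an EGF receptor ligand that granulosa cells shed, had 258, 634 and 3632 in control PeF and 42.5, 38.7 and 44.4 in control PoF (-4.25 ± 0.81, adjusted p = 5.0e-04, limma). The control PeF arrays spanned a wide range and still did not overlap with control PoF. Epiregulin (Ereg), a ligand of the same receptor, had 207, 730 and 4986 against 263, 128 and 102 (-2.57 ± 0.91). Its groups overlapped, and its call was lost without control PeF 3 (-1.35), control PoF 2 (-2.46) or control PoF 3 (-2.30) and with the Gapdh difference as a covariate. Neuregulin 1 (Nrg1) was at 65.6, 113 and 214 at first and fell to background in control PoF, at least 13.2-fold lower. The receptor of Areg and Ereg, Egfr, fell by 1.69 ± 0.20, from 4077, 3280 and 2507 to 1075, 969 and 949. The natriuretic peptide clearance receptor Npr3 fell by 2.18 ± 0.55, while Npr2, the receptor through which the type C peptide holds the oocyte in meiosis, differed by 0.23 ± 0.24 and was not called.

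Endothelin 2 (Edn2), a peptide that contracts the follicle wall, ran the other way, from 12.9, 24.4 and 40.6 to 898, 503 and 238 (4.18 ± 0.49, adjusted p = 3.9e-06, limma). Its converting enzyme Ece1 rose by 1.59 ± 0.21. Of the hormone receptors, Lhcgr, the receptor of luteinizing hormone, had 152, 514 and 1222 against 418, 362 and 994, which overlapped and was not called (0.22 ± 0.64). Among 16 tested genes of prostaglandin metabolism 6 were called higher and 3 lower (median 0.28), and none of the 6 receptor genes on the array passed the filter on low signals. Phospholipase A2 (Pla2g4a), which frees arachidonic acid for Ptgs2, fell from 206, 295 and 977 to 51.9, 34.4 and 38.7 (-3.17 ± 0.46). The terminal synthase Ptges rose by 1.46 ± 0.44 over the same interval, a call lost without control PeF 2 (1.08), and the exporter Abcc4 went from 35.4, 24.1 and 9.74 to 218, 251 and 239 (3.35 ± 0.34). Ptgr2, which inactivates prostaglandins, rose by 1.17 ± 0.25.

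Downstream of the receptors, genes of cyclic AMP signalling moved in both directions. Of 21 tested, 7 were called lower and 4 higher (median -0.17), beside 19.6% and 24.5% of all genes tested. After median scaling 4 were called in each direction. The transcription factor Crem, which includes an inducible repressor of cyclic AMP responses, went from 1161, 1227 and 2432 to 214, 231 and 206 (-2.79 ± 0.29). The cyclic AMP-degrading phosphodiesterases Pde10a (-2.77 ± 0.32) and Pde4b (-1.86 ± 0.24) fell, and 4 of 6 tested phosphodiesterases were called lower, 3 after median scaling and none with signals as deposited. The kinase gene Sgk1, 1170, 1012 and 830 in control PeF and 3517, 3705 and 4209 in control PoF, rose (1.93 ± 0.16, adjusted p = 8.3e-08, limma). The catalytic subunit Prkaca (1.45 ± 0.27) and the cyclase Adcy3 (1.97 ± 0.33) rose too. The immediate early list had 8 of 24 tested genes called lower and 2 higher (median -0.33), 2 and 2 after median scaling, and none and 3 with signals as deposited. Fosl1, a subunit of the AP-1 factor, went from 82.1, 138 and 267 to 35.6, 37.2 and 17.5 (-2.23 ± 0.45), and Ier5 fell by 2.14 ± 0.34. Myc, a growth regulator, rose instead (1.32 ± 0.27). Fos, Egr1 and Nr4a1 overlapped between the groups and were not called, but Nr4a1 (0.46) was called higher without control PeF 3 (1.17). Feedback phosphatases of the MAP kinases split: Dusp5 (-2.31 ± 0.64) and Dusp6 (-2.11 ± 0.34) fell and Dusp14 rose (1.49 ± 0.26).

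Transcription factors of the follicle split between rises and falls. The progesterone receptor Pgr, without which follicles do not rupture, was at 50.2, 108 and 517 in control PeF and no higher than background, 2.23, 2.51 and 2.81, in control PoF, at least 16.0-fold lower (adjusted p = 7.2e-05, limma). Of 14 tested genes in the list of Pgr and its reported targets 4 were called lower and 1, Edn2, higher. Snap25, a protein of regulated secretion, fell from 1637, 1511 and 1850 to 430, 214 and 156 (-2.76 ± 0.33). Adamts1, a protease that cleaves versican, had 4555, 3948 and 4209 against 3655, 2653 and 3691 and was not called (-0.36 ± 0.27). Of 24 tested gonadal transcription factors 8 were called higher and 10 lower (median -0.20). The 5 lower ones also called with median scaling include Pgr and Hey2, a Notch target (-2.59 ± 0.39). Those that rose include the steroidogenic nuclear receptors Nr5a1 (48.7, 56.8 and 24.8 to 288, 287 and 236, 2.63 ± 0.28) and Nr5a2 (923, 750 and 585 to 3017, 3143 and 3291, 2.08 ± 0.34). Their repressing partner Nr0b2 (2.40 ± 0.42), the granulosa identity factor Foxl2 (2.02 ± 0.22), Gata4 (1.20 ± 0.22) and the orphan receptor Rora (2.87 ± 0.46) rose as well. After median scaling 8 were called higher and 5 lower, and with signals as deposited 9 and 1. With each gene's probe set of middle difference, the lower one where the middle is a pair, 4 were called higher and 7 lower. That choice leans towards lower differences.

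Subunits of inhibin and activin moved in opposite directions, and several BMP genes fell. Of 26 tested genes of the inhibin, activin and BMP list, 14 were called lower and 4 higher (median -0.84), 8 and 4 with median scaling, and none and 4 with signals as deposited. The inhibin alpha subunit Inha, through which the follicle restrains pituitary FSH, went from 7455, 10188 and 9328 to 2319, 2369 and 3236 (-1.77 ± 0.19). The beta A subunit Inhba went from 872, 2185 and 6621 to 329, 286 and 345 (-2.86 ± 0.71). The beta B subunit Inhbb went the opposite way, from 127, 137 and 120 to 955, 784 and 975 (2.79 ± 0.16, adjusted p = 3.2e-09, limma), with tight values in each group. The activin-binding follistatin gene Fst rose by 1.16 ± 0.28 and Fstl3 by 1.69 ± 0.34. The ligands Bmp2 (-2.10 ± 0.51) and Bmp7 (-1.78 ± 0.23) fell. Among the Id genes, inhibitors of helix-loop-helix factors that answer to BMPs, Id2 rose (3.20 ± 0.37, and 4.91 by its other probe set) while Id4 fell (-1.74 ± 0.22). In the Wnt list 5 of 14 were called lower and 2 higher. Wnt2 was at 80.5, 83.5 and 98.2 and then at background, at least 9.93-fold lower, and its candidate receptor Fzd8 fell by 2.69 ± 0.34. Wnt4, a factor of female gonad identity and luteal tissue, rose from 23.7, 10.7 and 6.10 to 108, 141 and 104 (3.02 ± 0.48). Notch1 fell by 1.94 ± 0.20.

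Versican, Tnfaip6 and the link proteins of the hyaluronan matrix fell, and many genes of the structural matrix rose. Of 6 tested genes that make or stabilise the cumulus matrix, 5 were called lower and none higher (median -2.64). Tnfaip6, which couples proteins to hyaluronan, went from 271, 564 and 593 to 16.8, 23.5 and 20.4 (-4.31 ± 0.53). Versican (Vcan), a proteoglycan that binds hyaluronan, went from 7669, 6276 and 8241 to 1276, 1302 and 902 (-2.68 ± 0.16), and the link proteins Hapln1 (-3.07 ± 0.58) and Hapln3 (-2.61 ± 0.41) fell. The synthase Has2, between 8.11 and 61.7 on all 6 arrays, was not called (-0.87 ± 0.50), but it was called lower without control PeF 1 (-1.38). Of 7 tested genes of hyaluronan degradation and its receptors 1, Cemip, was called higher and none lower (median 0.23). Of 5 cumulus markers, which include Tnfaip6 and Has2, 2 were called lower and none higher (median -0.87), and the part of lost cumulus cells in these falls was not tested. In the list of structural matrix 21 of 42 tested genes were called higher and 5 lower (median 0.50). The laminin chain Lama1 rose from 122, 65.9 and 64.7 to 481, 416 and 356 (2.32 ± 0.26). Col1a2 (1.08 ± 0.20), Sparc (1.21 ± 0.24), which binds collagen, and the collagen-modifying enzymes Plod1 (1.97 ± 0.38) and P4ha2 (1.69 ± 0.21) rose. With the Gapdh difference as a covariate 9 of the 42 were called higher and none lower. Of 31 tested proteases and inhibitors 4 were called higher and 7 lower (median -0.25), but 9 and 2 after median scaling and 8 and 1 with signals as deposited. The inhibitor of plasminogen activators Serpinb2 fell from 39.1, 111 and 382 to 2.87, 4.77 and 9.37 (-3.93 ± 0.69), the stromal protease Mmp11 rose (2.68 ± 0.65) and the lysosomal protease Ctsd rose (1.78 ± 0.26). Plat, the tissue plasminogen activator, was not called (0.41 ± 0.45).

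Of 7 tested genes of coagulation control 4 were called lower and 2 higher. Tissue factor (F3), which starts clotting, went from 708, 929 and 527 to 102, 88.3 and 53.5 (-3.12 ± 0.31), the inhibitor Tfpi2 from 508, 564 and 946 to 15.0, 22.6 and 21.3 (-4.88 ± 0.30), and the protein C receptor Procr fell by 2.04 ± 0.40. The tissue factor inhibitor Tfpi rose (1.16 ± 0.22), as did the anticoagulant annexin Anxa5 (1.36 ± 0.24), both losing the call with the Gapdh covariate.

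Aromatase and Cyp17a1, key enzymes of estrogen and androgen synthesis, fell. Aromatase (Cyp19a1), the last step of estradiol synthesis, had 164, 314 and 748 in control PeF and 11.1, 11.3 and 13.4 in control PoF (-4.53 ± 0.49, adjusted p = 2.0e-06, limma). Cyp17a1, the theca enzyme that makes androgen, went from 45.1, 101 and 271 to 1.00, 1.07 and 7.49 (-4.38 ± 0.59). Cyp11a1, which cuts the side chain of cholesterol, was at 8773, 8524 and 7006 and then at 8867, 10430 and 9752 (0.26 ± 0.10, adjusted p = 0.047, limma), a call lost with median scaling (0.04) and without control PeF 3 (0.15), control PoF 2 (0.21) or control PoF 3 (0.26). Star, which carries cholesterol into mitochondria, went from 4490, 4269 and 4152 to 2055, 2456 and 2496 (-0.89 ± 0.14), a fall relative to the other genes that turned into a rise with the deposited signals (0.42). Hsd3b1, which makes progesterone, rose by 0.54 ± 0.08 (0.08 and not called with median scaling), and Hsd11b1, which activates glucocorticoids, by 1.25 ± 0.21. Akr1c14, a steroid-reducing enzyme, fell by 1.77 ± 0.39. Hsd17b4 (1.57 ± 0.25) and Hsd17b10 (1.12 ± 0.18), which also serve fatty acid oxidation, rose. Of 34 tested cholesterol genes 16 were called higher and 1 lower (median 0.51), 12 and none without control PeF 3, and 7 and 2 with the Gapdh covariate. Dhcr7, the last step of cholesterol synthesis, went from 687, 364 and 271 to 2201, 2940 and 2580 (2.64 ± 0.27). The regulators Insig2 (1.55 ± 0.25) and Scap (1.31 ± 0.21) rose, as did hormone-sensitive lipase, Lipe (2.61 ± 0.68), which frees stored cholesterol.

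Several genes that cells raise when oxygen is short were higher after ovulation. The factors that sense oxygen were called at shares near those over all genes, 24.5% higher and 19.6% lower. Of 17 tested genes of the hypoxia response 10 were called higher and 1 lower (median 0.98), with 10 higher also after median scaling. Adrenomedullin (Adm), a vessel-widening peptide, was at background in control PeF and at 317, 171 and 60.7 in control PoF, at least 10.2-fold higher (adjusted p = 4.2e-06, limma). The mitophagy gene Bnip3 went from 302, 271 and 134 to 3005, 2405 and 2343 (3.51 ± 0.34), heme oxygenase 1 (Hmox1) from 64.6, 68.3 and 50.7 to 375, 391 and 256 (2.41 ± 0.22), and Ndrg1 from 115, 117 and 194 to 597, 534 and 419 (1.87 ± 0.27). Egln3, an oxygen-sensing prolyl hydroxylase, was at background and then at 109, 89.1 and 32.1, at least 4.78-fold higher. Vegfa, the main vessel growth factor, rose from 322, 466 and 392 to 1909, 1561 and 1094 (1.92 ± 0.20). In Edn2, Adm, Egln3, Vegfa and Ndrg1 control PoF 1 was the highest and control PoF 3 the lowest of the 3, and control PoF 1 was the highest in 7 of the 10 called genes, against 3589 of all 10381 genes. The oxygen-sensing factor itself, Hif1a, had 6247, 5735 and 5245 against 5032, 4851 and 4638 and was not called (-0.24 ± 0.11). Of 10 tested oxygen-sensing factors and cofactors 2 were called higher and 3 lower (median -0.07), with Vhl, which marks the Hif1a protein for destruction, among the lower (-1.26 ± 0.21, but 0.21 with signals as deposited).

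In the list of glycolysis and glucose transport 21 of 28 tested genes were called higher and 2 lower (median 0.87), and 17 and 1 with the Gapdh covariate. Of 21 tested genes in the list's enzyme part, which also holds the lactate exporter Slc16a3, 16 were called higher. Pfkfb4 was called lower (-1.18 ± 0.28, but 0.14 with signals as deposited), and Hk2, Pfkfb3, Ldhb and Pdk3 were not called. Those that rose include hexokinase Hk1 (2.26 ± 0.23), Gpi (2.20 ± 0.25), the phosphofructokinases Pfkm (2.66 ± 0.39) and Pfkp (1.73 ± 0.15), the aldolases Aldoc (3.67 ± 0.51) and Aldoa (1.15 ± 0.15), Tpi1 (2.18 ± 0.27), Eno1 (2.21 ± 0.31) and lactate dehydrogenase Ldha (0.88 ± 0.17). Tpi1, as an example, had 1745, 1296 and 822 in control PeF and 5538, 5831 and 5413 in control PoF, groups that did not overlap. Glycogen synthase Gys1 rose (3.52 ± 0.68) with phosphoglucomutase Pgm1 (2.20 ± 0.26). The glucose transporter Slc2a1 was not called (-0.02 ± 0.18), and Slc2a3, the high-affinity one, fell (-1.47 ± 0.32). Of 75 tested subunits of oxidative phosphorylation 50 were called higher and 2 lower (median 0.57), with 46 and none without control PeF 3. Complexes were assigned from the symbol prefix alone, so the 36 genes under complex I are Nduf genes, Ndufa4 and Ndufa4l2 among them. Of these 27 were called higher, as were 4 of 4 of complex II, 3 of 7 of complex III, 8 of 13 of complex IV and 8 of 15 of the ATP synthase. Ndufv3 (1.80 ± 0.20) and Sdhb (1.38 ± 0.16) were among those called higher. The hypoxia-type subunit Cox4i2 was at background in control PeF and at 54.7, 53.6 and 41.0 in control PoF, at least 3.51-fold higher, while its common counterpart Cox4i1 differed by 0.29 ± 0.10, a call lost without control PeF 1 (0.26), control PeF 3 (0.21), control PoF 2 (0.26) or control PoF 3 (0.30). Ribosomal proteins, a comparable set of abundant transcripts, had 17 of 45 called higher and 2 lower with a median of 0.20.

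**Figure D2:**
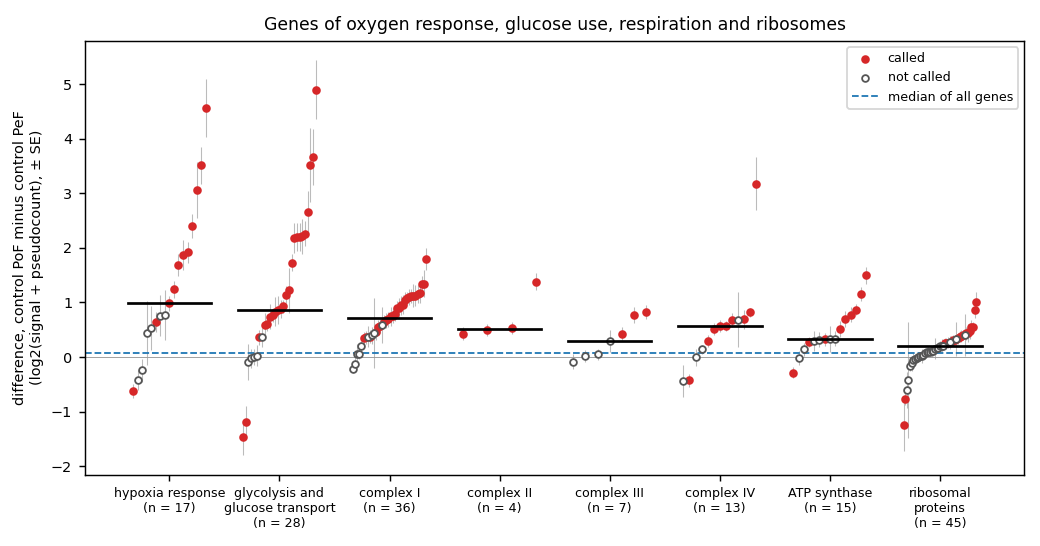
Difference between control PoF and control PeF in log2(signal + 2.79) for each tested gene of the hypoxia response, glycolysis and glucose transport, the 5 complexes of oxidative phosphorylation and the ribosomal proteins, with filled points for genes called higher or lower and open points for the others and grey bars for ± SE. The short line is the median of each set and the dashed line the median of all 10381 genes, 0.08. Complex I, assigned from the symbol prefix Nduf, has 27 of 36 filled points above 0.

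Genes of the defence against oxidants moved in both directions. Of 25 tested genes 14 were called higher and 4 lower (median 0.69). Those called lower were Gclm, Srxn1, Slc7a11 and the mitochondrial superoxide dismutase Sod2 (-1.28 ± 0.18, but 0.17 with signals as deposited). Sulfiredoxin, Srxn1, which repairs oxidized peroxiredoxins, went from 609, 1747 and 2598 to 80.6, 90.7 and 105 (-3.90 ± 0.52) and the cystine transporter Slc7a11 fell by 2.27 ± 0.41. The catalytic partner of Gclm, Gclc, was not called (-0.46 ± 0.32). Among the genes called higher were enzymes that remove peroxide or superoxide, with Gpx1 at 1.55 ± 0.14, Gpx3 at 1.94 ± 0.20, Sod1 at 1.17 ± 0.12, catalase (Cat) at 1.79 ± 0.28 and the membrane glutathione transferase Mgst1, from 734, 592 and 500 to 2909, 2575 and 3430, at 2.29 ± 0.26. Of 9 tested metallothionein and zinc genes 2 were called higher and 3 lower (median -0.32), and 3 and 1 after median scaling. The 2 that rose were the metal-binding Mt3 (3.01 ± 0.61) and Mt2A (1.26 ± 0.31).

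Vessel factors moved in both directions. Of 20 tested angiogenesis genes 7 were called higher and 4 lower (median 0.13), beside 24.5% and 19.6% of all genes tested. Apelin (Apln), a peptide of vessel tips and contraction, went from 96.2, 86.4 and 8.37 to 1315, 1314 and 1727 (4.97 ± 0.53), and its receptor Aplnr rose by 1.94 ± 0.45. Vegfc, the lymphatic relative of Vegfa, fell from 685, 732 and 968 to 157, 174 and 114 (-2.41 ± 0.21). Esm1, a proteoglycan that Vegfa induces in endothelium, fell from 535, 606 and 646 to 21.5, 20.8 and 44.0 (-4.32 ± 0.26). The growth factor gene Pdgfa fell by 1.82 ± 0.27.

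Inflammatory genes gave calls that depended on the scaling. Of 27 tested cytokine, chemokine and feedback genes 8 were called lower and 2 higher (median -0.52), 4 and 2 after median scaling, and none and 6 with signals as deposited. Of the 12 ligands among them 1 was called lower and 1 higher. The NF-kappaB inhibitors Nfkbia, from 371, 388 and 361 to 106, 119 and 126 (-1.65 ± 0.22), and Tnfaip3 (-1.56 ± 0.22) fell. Il6 had 4.17, 44.8 and 201 against 9.90, 9.02 and 6.96, overlapping and not called (-1.84 ± 0.83). It was called lower without control PeF 1 (-3.12) and with array quality weights (-1.83). Of 17 interferon and antigen presentation genes 5 were called higher and 2 lower, a share near the background. Of 16 clock genes 4 were called higher and 5 lower (4 and 2 after median scaling), and the groups were collected 12 hours apart. Cry1 (-1.95 ± 0.21) and Per1 (-1.79 ± 0.20), which repress the clock, fell, and Bhlhe40, a further repressor that hypoxia induces, rose from 24.4, 69.1 and 11.9 to 322, 215 and 157 (2.87 ± 0.42). Only 3 of 37 cell cycle genes were called higher and 4 lower. The proliferation marker Mki67 had 369, 222 and 201 against 291, 222 and 222 and was not called (-0.07 ± 0.22). Cdkn1b, the inhibitor that halts luteinizing granulosa cells, rose (1.56 ± 0.29), and thymidine kinase Tk1 rose from 77, 59.6 and 19.5 to 483, 428 and 474 (3.27 ± 0.39). Genes of the insulin-like growth factor system included the binding protein Igfbp2, which fell (-1.99 ± 0.25), and the scavenging receptor Igf2r, which rose (1.60 ± 0.18). Of 22 genes of endoplasmic reticulum stress 10 were called lower and 3 higher, 2 and 4 with median scaling, with Asns at -2.12 ± 0.38.

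**Figure D3:**
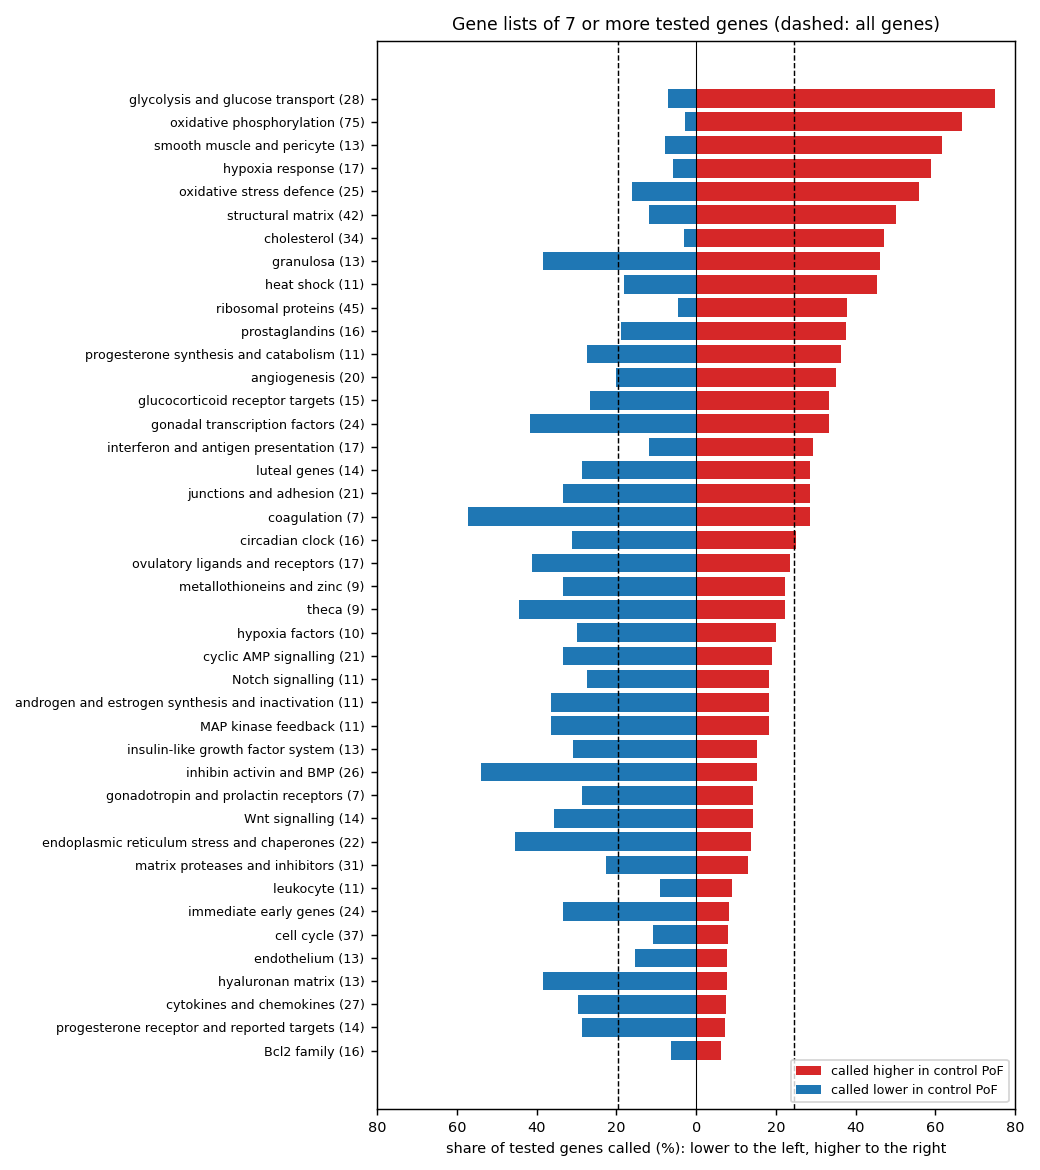
Share of the tested genes of each list called higher (right) and lower (left) in control PoF against control PeF, in percent, with the number tested beside the name. The dashed lines are the shares over all 10381 genes, 24.5% higher and 19.6% lower. Glycolysis and oxidative phosphorylation reach furthest to the right, and the inhibin, activin and BMP list and coagulation furthest to the left among lists of 7 or more genes.

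Markers of the cell types that a microdissected follicle can hold were tested next, from lists of each type. Granulosa markers gave 6 called higher and 5 lower of 13, and theca markers 2 and 4 of 9. Of 5 cumulus markers 2, Tnfaip6 and Slc7a11, were called lower and none higher. Insl3, a theca peptide, was not called (-0.55 ± 0.35), but it was called lower without control PeF 2 (-0.94). Smooth muscle and pericyte markers had 8 of 13 called higher and 1 lower (median 0.94), and 4 and 1 with the Gapdh covariate. Smooth muscle actin Acta2 went from 42.3, 33.1 and 17.3 to 81.4, 81.8 and 117 (1.57 ± 0.30), the pericyte marker Rgs5 from 14.7, 14 and 1.39 to 41.7, 55.2 and 56.4 (2.32 ± 0.50), and Cspg4 was at background before and at least 2.40-fold higher after. Myh11, a mature smooth muscle myosin, was not called (-0.20 ± 0.32). Endothelial markers gave 1 higher and 2 lower of 13. These counts were 3 and none after median scaling, 5 and none with signals as deposited, and none and 1 with the Gapdh covariate. Pecam1, at 0.79 ± 0.31, was not called, but it was called higher after median scaling (1.10) and without control PeF 3 (1.11). Leukocyte markers gave 1 higher and 1 lower of 11, with the pan-leukocyte Ptprc between 1.39 and 22.2 on all 6 arrays. Of 7 oocyte markers on the array 3 passed the filter and none was called. Of the surface epithelium markers Krt8 went from 37.1, 40.6 and 12.6 to 145, 141 and 235 (2.52 ± 0.32) and Upk1b rose by 1.78 ± 0.40, but Krt18 was not called and Krt19 stood at background in both groups. The part of changed cell makeup in the results above was not tested.

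Promoter letters were read for the genes that moved together, in the 250 bases before the first start listed for each gene in the RefSeq promoter table (build GRCr8), on both strands. The table matched 8707 of the 10381 genes tested. The full cyclic AMP element TGACGTCA stood in 3.09% of these promoters, in 4.00% of those of genes called lower and in 2.57% of those called higher. The AP-1 letters TGANTCA, which a TGACGTCA match does not itself contain, stood in 18 of 190 promoters of genes that fell at least 4-fold (9.47%), against 4.23% of all tested, and in 4.56% of those that rose at least 4-fold. Over all genes called lower their share was 3.89%, no higher than that of all tested, and over all genes called higher 4.32%. The hypoxia element core ACGTG stood in 11 of 26 promoters of the hypoxia and glycolysis genes called higher (42.3%), against 22.9% of all tested and 9 of 45 for the oxidative phosphorylation genes called higher. It stood in 22.9% of all genes called higher, in 19.9% of those that rose at least 4-fold and in 0 of 16 of the 20 largest rises. The share among members of the hypoxia and glycolysis lists not called higher was not taken, so the 42.3% cannot be tied to their rise. Over all 27457 promoters of the table the shares were 1.70% for TGACGTCA, 6.36% for TGANTCA and 16.9% for ACGTG. The letters CAAGGTCA, bound by Nr5a1 and Nr5a2, stood in 1.42% of the promoters of genes called higher and 0.464% of those called lower. These shares describe letters, not sites at which a factor was measured. The stretches from 150 to 51 bases before the start are shown for 7 members whose values are given here, 5′ to 3′ on the gene's strand, with the matched letters in capitals. Areg (chr14:17265692-17265791, minus strand) and Scg2 (chr9:88256917-88257016, minus strand) fell and hold TGACGTCA. Tfpi2 (chr4:32941327-32941426, minus strand) and Srxn1 (chr3:161064662-161064761, plus strand) fell and hold TGANTCA. Bnip3 (chr1:203155013-203155112, minus strand), Bhlhe40 (chr4:143174300-143174399, plus strand) and Ldha (chr1:106507942-106508041, plus strand) rose and hold ACGTG or its complement CACGT.
Areg: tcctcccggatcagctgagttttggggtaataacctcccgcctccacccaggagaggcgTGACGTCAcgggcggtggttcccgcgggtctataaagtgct
Scg2: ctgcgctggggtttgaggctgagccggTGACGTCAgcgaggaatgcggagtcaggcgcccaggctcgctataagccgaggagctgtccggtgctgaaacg
Tfpi2: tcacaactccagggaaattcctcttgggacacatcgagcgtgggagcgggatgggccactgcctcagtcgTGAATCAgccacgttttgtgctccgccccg
Srxn1: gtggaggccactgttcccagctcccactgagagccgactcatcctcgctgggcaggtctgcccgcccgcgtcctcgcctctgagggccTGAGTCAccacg
Bnip3: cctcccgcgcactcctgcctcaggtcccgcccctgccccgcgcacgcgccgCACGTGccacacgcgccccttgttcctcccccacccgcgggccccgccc
Bhlhe40: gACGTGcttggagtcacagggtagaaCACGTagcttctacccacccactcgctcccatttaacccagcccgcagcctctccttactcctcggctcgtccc
Ldha: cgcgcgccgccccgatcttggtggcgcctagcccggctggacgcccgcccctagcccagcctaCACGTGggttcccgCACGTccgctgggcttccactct

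The untreated course was set against that of follicles that did not rupture. Rats given indomethacin, a cyclooxygenase inhibitor, orally at 16:00 of proestrus in a dose of 4 mg/kg, or RU486, which blocks the receptors for progesterone and glucocorticoids, at a dose of 100 mg/kg at 10:00, gave peri-ovulatory follicles at 22:00 (IM PeF, RU PeF) and, at 10:00 of estrus, follicles that had not ruptured (IM UF, RU UF). Drug and failed rupture cannot be told apart at the later time. Of the 7190 probe sets called, 6900 (95.97%) had the same sign in the indomethacin course and 6578 (91.5%) in the RU486 course, against 78.1% and 75.1% of all tested. No probe set was called in limma's test of the difference between the untreated and the indomethacin course, where 1637 had an unadjusted p under 0.05 and the smallest adjusted p was 0.28. Array quality weights gave 543 and the deposited signals 5. The difference from the RU486 course was called for 730 probe sets (4.02%), 335 with the untreated change more positive (1.85%) and 395 more negative (2.18%), and for 462 genes (4.45%), 227 with the untreated change more positive (2.19%) and 235 more negative (2.26%). Both differences share the control arrays. The count of 730 fell to between 363 and 474 without any 1 of control PoF 2, control PoF 3, RU PeF 2, RU PeF 3 and the RU UF arrays, and was 139 with the Gapdh covariate, 333 with median scaling, 82 with the deposited signals, 1664 without the 3 dimmest arrays and 2441 with array weights.

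Several genes of the hypoxia response rose in untreated follicles and not under RU486. Edn2, at 92.2, 174 and 61.8 on RU PeF, was at 82.6, 65.9 and 117 on RU UF, a change of -0.21 where the untreated change was 4.18, and the difference of the changes was 4.38 ± 0.69 (adjusted p = 0.0015, limma). In IM UF it was at 448, 548 and 223, a rise of 3.58. Adm changed by -0.10 in the RU486 course and went from 6.81, 12.8 and 2.15 to 33.9, 12.5 and 14.9 in the indomethacin course. Control PeF was at background for Adm and Egln3, so their untreated rise is known only as a bound and their fitted differences of the changes depend on the pseudocount. The fitted difference from the RU486 course was called for Adm (adjusted p = 0.0018, limma) and Egln3 (adjusted p = 0.0056, limma), and that from the indomethacin course for neither. Egln3 was not above background on any RU UF array. Bhlhe40 changed by -1.11 and 0.52, against 2.87 untreated. Of the 17 hypoxia response genes 5 differed from the RU486 course, all with the untreated change more positive, and the list's median was 0.98 untreated, 0.21 under indomethacin and 0.11 under RU486. Ndrg1 (3.30 ± 0.38), Hmox1 (2.22 ± 0.31) and Ero1a (1.34 ± 0.23) were among the 5. Of 28 glycolysis genes 5 differed in that direction, among them Pfkp (2.01 ± 0.22), Eno2 (2.30 ± 0.35) and Eno1 (1.71 ± 0.44), and 1 in the other, against 3 and none after median scaling. Vegfa, Bnip3 and Slc16a3 were not among the genes that differed, with differences of 0.69 ± 0.28, 0.66 ± 0.48 and 2.60 ± 0.75 (adjusted p = 0.062 for the last, limma). Inhbb rose less under RU486 (0.74, difference 2.06 ± 0.23) and by 3.01 under indomethacin (difference -0.22, not called).

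**Figure D4:**
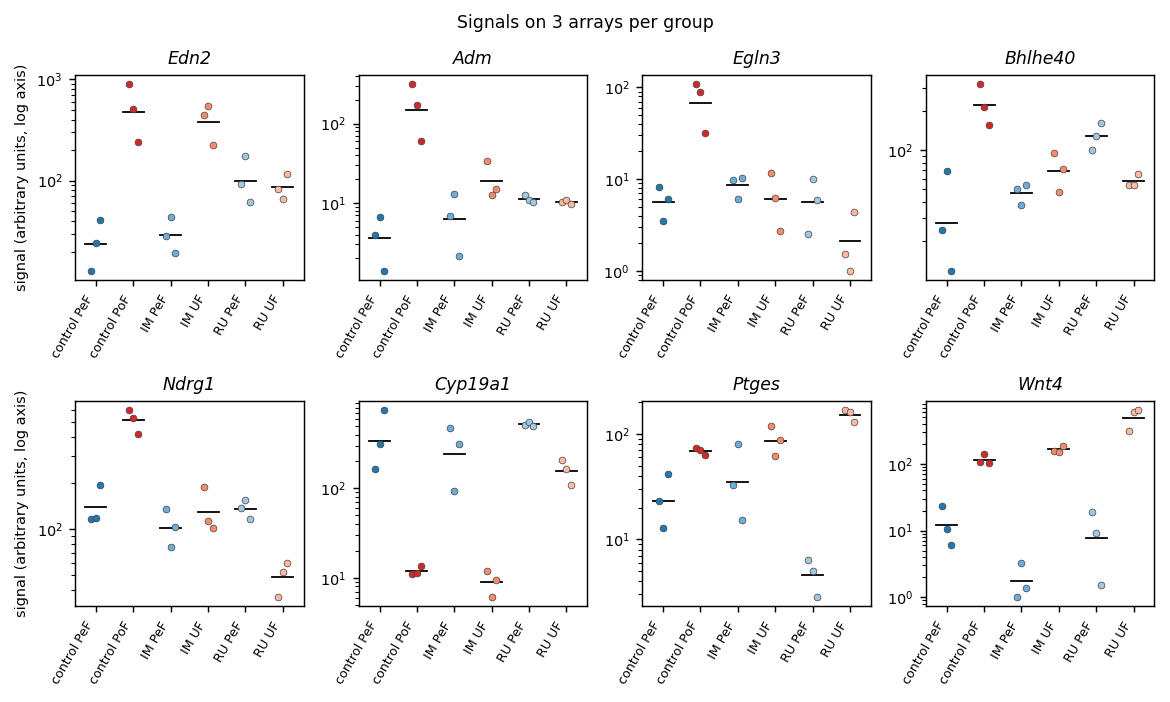
Quantile-normalized signal (log axis) of 8 genes on all 18 arrays, 3 per group, with bars at the group means of log2(signal + 2.79): control, indomethacin (IM) and RU486 (RU) follicles at 22:00 (PeF) and at 10:00 (PoF or UF). Edn2, Adm, Egln3, Bhlhe40 and Ndrg1 are high in control PoF and not in RU UF, while Cyp19a1 falls less and Ptges and Wnt4 rise more in the RU course.

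Other genes fell in untreated follicles and not, or less, under RU486. Cyp19a1 was at 508, 549 and 502 on RU PeF and still at 208, 165 and 108 on RU UF, a change of -1.73 (difference -2.81 ± 0.70, adjusted p = 0.030, limma). Egfr changed by 0.37 (difference -2.06 ± 0.28), Vcan by -1.26 (difference -1.42 ± 0.23) and F3 by -1.14 (difference -1.98 ± 0.45). Ptges rose in both, but from 6.36, 5.04 and 2.83 to 169, 161 and 131 under RU486 (4.40, difference -2.94 ± 0.63), and Wnt4 rose by 5.57 (difference -2.55 ± 0.67). The desert hedgehog gene Dhh rose by 4.92 under RU486 and by 1.19 untreated, a call lost without control PeF 3 (0.98) or any 1 control PoF array (1.14 to 1.20), and the metallothionein Mt1 by 3.80 against 0.53, not called in the untreated course. Mt1 was called higher untreated after median scaling (0.89) and with the Gapdh covariate (1.28). Stc1, a secreted glycoprotein, had the largest difference, 5.18 ± 0.66: it fell by 4.54 under RU486 and was not called untreated (0.64 ± 0.46), and its brightest probe set gave a difference of 3.80. That probe set, not called untreated (0.75), was called higher after median scaling (1.09) and without control PeF 3 (1.34). Among 15 targets of the glucocorticoid receptor, which RU486 also blocks, 5 differed, all with the untreated change more negative, but 2 in each direction after median scaling. Per1 and Klf9, 2 of these targets, fell untreated (-1.79 ± 0.20 and -1.78 ± 0.18) and changed by -0.08 and -0.12 under RU486. In leave-one-out fits the differences of Cyp19a1 and Wnt4 lost their call in 8 of 12, of Eno1 in 9 of 12 and of F3 in 3 of 12, while those of Edn2, Adm, Bhlhe40, Ndrg1, Hmox1, Egfr, Vcan and Ptges kept it in all 12.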

How the data were processed

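Follicle RNA from 6 groups of 3 samples was measured on single-colour expression arrays, and the 6 untreated arrays carry the main comparison. The deposited values are linear array signal intensities made with MAS5, per the submitters' processing notes, and no further step is named there. Probe sets were named through the platform annotation, updated by gene ID: 20826 had 1 gene symbol, 436 several and 9780 none. Here the 18 arrays were quantile-normalized and transformed as log2(signal + 2.79), the 20th percentile of the deposited values. Of 31042 probe sets without the 57 controls, 18155 above their array's median on at least 3 arrays entered the fit of 6 group means in limma (version 3.58.1, R version 4.3.3) with a variance trend and Benjamini-Hochberg adjustment at 0.05. A gene is represented by its probe set with the highest mean. Precision rests on the number of arrays and on the spread among them, and array signals give no counts.

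Genes were named by a rule: the 20 largest rises and falls called also with median scaling and with groups apart, list members, fixed genes of ovulation, and the 10 largest differences between courses in each direction. Members and lists were chosen with earlier results of these data known. The statistics were tested on simulated data with independent noise. These held neither an outlying array nor brightness that moves with the group, so the simulation does not cover those features of the real arrays. Alternatives covered scaling, pseudocount, filter, samples in the fit, weights, the Gapdh 3' to 5' difference, the variance trend, the replicate block, the probe set of a gene, the 3 dimmest arrays and each replicate. Same-numbered control arrays deviated with correlations of -0.023, 0.019 and -0.030, and arrays of unlike number with -0.031 to 0.034. The numbers thus showed no pairing of the samples, which 3 arrays per group, with control PeF 3 apart from the others, cannot exclude. All columns matched a sample.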

Additional observations from a re-analysis of the deposited data

Results flagged for a closer look

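The change of 39 of the 190 genes named differed between untreated and RU486-treated follicles in limma's test of the difference itself (adjusted p under 0.05, n = 3 per group), 19 with the untreated change more positive and 20 more negative. Over all genes tested it was 462 of 10381 (4.45%), and some genes were named because they differed, so the count over the named genes says nothing of its own. All values are untreated change minus RU486 change in log2(signal + 2.79).

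More positive in untreated follicles were Edn2 at 4.38, Bhlhe40 at 3.98, Stc1 at 3.80, Ndrg1 at 3.30, the plasminogen activator Plat at 2.84, Akr1c14 at 2.40, Eno2 at 2.30, Hmox1 at 2.22, Inhbb at 2.06 and Pfkp at 2.01. Eno1 was at 1.71, Ero1a at 1.34, Gata4 at 1.21, Sdhb at 0.98 and Cox4i1 at 0.52. Adm at 4.68, Egln3 at 3.84, Fmo1 at 3.54 and Cox4i2 at 2.93 were at background in control PeF, so these 4 values depend on the pseudocount and have no order among the others.

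More negative were Dhh at -3.73, the metallothioneins Mt1 at -3.27 and Mt2A at -1.81, Ptges at -2.94, Cyp19a1 at -2.81, Wnt4 at -2.55 and Egfr at -2.06. F3 was at -1.98, Dusp6 at -1.84, Myh11 at -1.72, Pfkfb4 at -1.99, Per1 at -1.71, Klf9 at -1.66, Id4 at -1.65, Esm1 at -1.47, Vcan at -1.42, Nfkbia at -1.28, Proser2 at -1.21, Igf2r at -1.18 and Star at -1.03.

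Of these 39 differences 25 were not called with the Gapdh covariate, 17 after median scaling and 23 with signals as deposited, where a further 5 changed sign. With 1 of 12 arrays left out, the call was lost in 10 fits for Cox4i1, in 9 each for Dusp6, Myh11 and Eno1, in 8 each for Cyp19a1 and Wnt4, and in 7 each for Gata4 and Nfkbia. It was lost in 6 each for Esm1 and Mt2A, in 5 for Cox4i2, in 4 each for Akr1c14 and Proser2, in 3 for F3 and in 2 for Sdhb. The other 24 kept it in every such fit in which they were tested, which for Egln3 was 9 of the 12.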

How the results depend on the processing

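The 7190 probe sets called ranged from 5617 to 7878 when 1 control array was left out, the higher calls from 2968 to 4390 and the lower from 2649 to 3488. With the Gapdh difference as a covariate 4731 were called, 2275 of them higher. Lower calls fell from 3355 to 1483 under median scaling and to 141 with signals as deposited, and lists with more members called higher than lower went from 16 to 25 and 40 (15 to 17 in leave-one-out fits). The causes were not tested. Of 83 genes at background in 1 group, 49 were called when only the compared groups were fitted and 67 to 79 with 1 array left out. Groups did not overlap in 5487 genes, and in 5948 to 6678 with 1 array fewer, as fewer values overlap less easily. The difference from the indomethacin course went from 0 to 5 with the deposited signals and 543 with array weights, and stayed at 0 with any 1 array left out. The difference from the RU486 course, 730, was 333 under median scaling, 82 with signals as deposited, 2441 with weights, 139 with the Gapdh covariate and 1664 without the 3 dimmest arrays, and 363 to 924 with 1 array left out. With the deposited signals Star turned to 0.42, Vhl to 0.21, Sod2 to 0.17 and Pfkfb4 to 0.14, and differences from RU486 changed sign for Esm1 (0.051), Igf2r (0.47), Nfkbia (0.35), Proser2 (0.19) and Star (0.42). With the replicate number as a block, which showed no pairing of the samples, 6966 were called against 7190, and 596 against 730 for RU486. With the Gapdh covariate 15 of 165 named calls were lost, among them Ldha, Myc, Sparc, Col1a2, Plod1, Lipe and Slc2a3, and with the deposited signals 36. Without control PeF 3, 5 were lost. Some named genes not called above gained a call: 4 without control PeF 3, 4 after median scaling and 7 with array weights. Those without control PeF 3 were Hif1a (-0.31), Nr4a1 (1.17), Pecam1 (1.11) and the brightest probe set of Stc1 (1.34). Those after median scaling were Mt1 (0.89), Pdk3 (0.72), Pecam1 (1.10) and Stc1 (1.09). Il6 (-3.12) and Has2 (-1.38) gained a call without control PeF 1, and Insl3 (-0.94) without control PeF 2. Dim signals limit what can be said of genes near background.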
